A study of Mus musculus with 6 samples.

Results

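Canonical Wnt signalling switches on several genes whose products hold the pathway back, and these feedback inhibitors are widely used as readouts of its activity. The group described here holds 10 such genes and related membrane target genes: Axin2, Nkd1, Nkd2, Notum, Dkk1, Znrf3, Rnf43, Apcdd1, Kremen1 and Tnfrsf19. Members were found by gene symbol in the platform annotation, which gave 28 probe sets for the 10 genes, out of 45037 probe sets in all. Every member had at least 1 probe set, and no low-signal filter was applied. The tissue was the dissected node with the primitive streak, taken from mouse embryos of 0 to 2 somites at embryonic day 7.75 to 8 on a mixed C57BL/6 and 129/Sv background. Wnt3a wild-type embryos were compared with Wnt3a null embryos, 3 arrays per genotype, to ask which genes depend on Wnt3a at a stage 12 to 18 hours before mutants look abnormal. Each array carried a pool of amplified RNA from 3 stage-matched embryos of 1 genotype, so 9 embryos stood behind each genotype. The labels give no detail of the null allele.

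In the posterior end of the embryo Wnt3a is made by the primitive streak and acts on the cells that form the trunk mesoderm and neural tube. Wnt ligands bind Frizzled receptors with the co-receptors Lrp5 and Lrp6, which stabilises beta-catenin, and beta-catenin with Tcf/Lef factors turns on target genes. The members act at different steps of this route. Axin2 scaffolds the complex that destroys beta-catenin, and Nkd1 and Nkd2 bind Dishevelled inside the cell. Notum removes the lipid that Wnt ligands need, and Dkk1 blocks the Lrp co-receptors, with Kremen1 as a membrane receptor of Dkk1. Znrf3 and Rnf43 are membrane ubiquitin ligases that clear Frizzled from the surface, Apcdd1 is a membrane glycoprotein that inhibits Wnt signals, and Tnfrsf19 is a receptor of the tumour necrosis factor receptor family reported as a Wnt target.

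The members divided into a set with lower signals in null pools and a set without a clear difference. Axin2, Nkd1, Notum, Dkk1 and Tnfrsf19 each had at least 1 probe set on which all 3 null signals lay below all 3 wild-type signals at a clear distance from the dim end of the arrays, and 2 probe sets of Nkd2 did so near the median brightness. Znrf3, Apcdd1 and Kremen1 overlapped between genotypes on every one of their probe sets, and the single Rnf43 probe set was too dim to read a level from. Over the 28 probe sets, 9 had non-overlapping signals that were lower in null, against 4.41% of all probe sets, and 0 had non-overlapping signals that were higher, against 5.57%. The mean log2 signal was lower in null for 23 of the 28, against 48.3% of all probe sets. With each array left out in turn the first count ran from 9 to 13, against 8.15% to 10.4% of all probe sets.

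**Figure D1:**
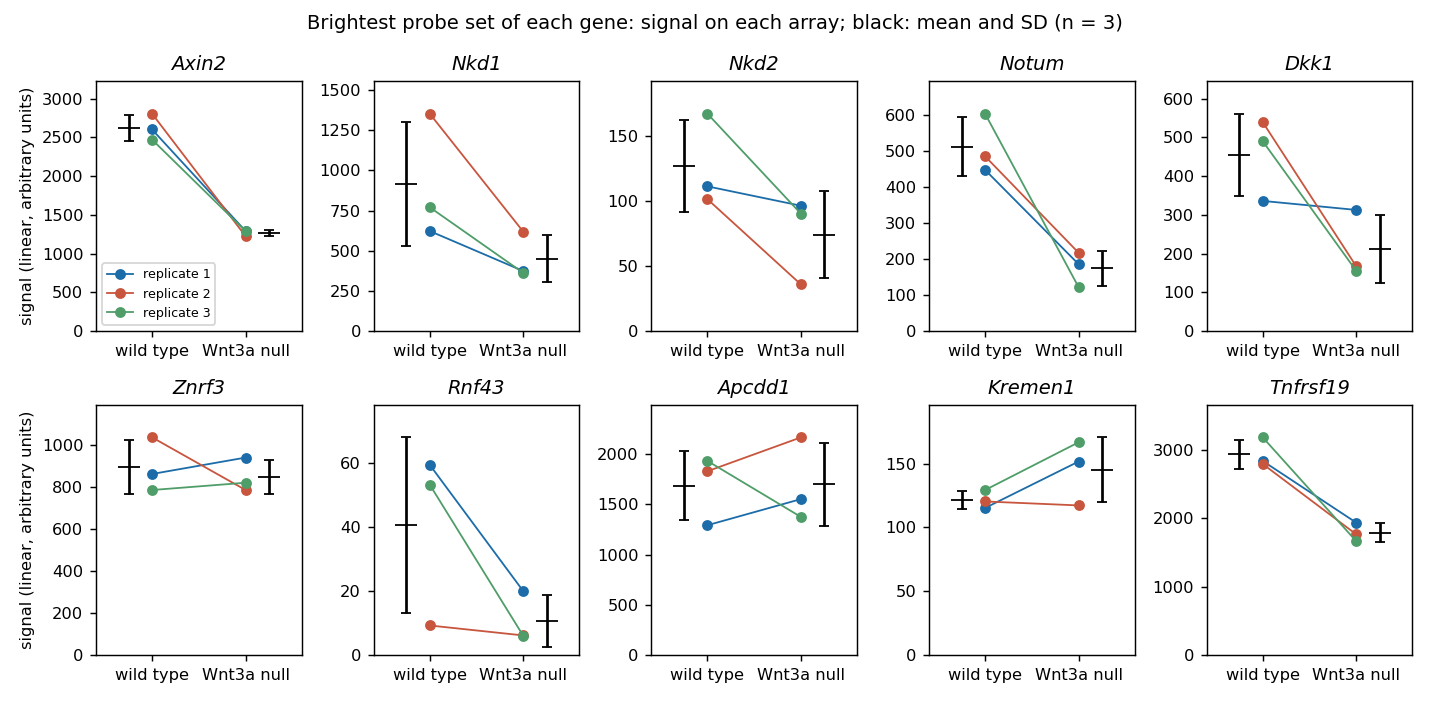
Signal (linear, arbitrary units, axes from 0) of the brightest probe set of each of the 10 genes on each array, with wild type on the left and Wnt3a null on the right of each panel. Coloured points are arrays, lines join arrays of 1 replicate number, and black bars show the mean and SD (n = 3): the genotypes separate for Axin2, Nkd1, Nkd2, Notum, Dkk1 and Tnfrsf19 and overlap for Znrf3, Rnf43, Apcdd1 and Kremen1.

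The test was made over all probe sets. With limma on log2 signals and genotype alone, 0 of 45037 probe sets passed an adjusted p of 0.05 in either direction (0.00% called lower and 0.00% higher), with a smallest adjusted p of 0.245 (limma). At an unadjusted p under 0.05, 993 probe sets were lower (2.20%) and 1280 higher (2.84%), and 8 of the 28 member probe sets were among the lower and 0 among the higher. With replicate number added as a block the count was 0 as well (0.00% in either direction), with 7 member probe sets lower at an unadjusted p under 0.05, against 2.57% of all. A fit with the block and limma's trend and robust options, chosen in earlier work on these data after several fits had been seen, called 14 probe sets lower (0.0311%) and 8 higher (0.0178%), among them 1 member probe set, that of Axin2. The median log2 difference, null minus wild type, was -0.45 over the member probe sets and 0.014 over all probe sets. It was -0.92 over the brightest probe set of each member and 0.0050 over those of all 18193 genes. Since the members were chosen with earlier results of these data known, these counts describe the group and do not test it.

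**Figure D2:**
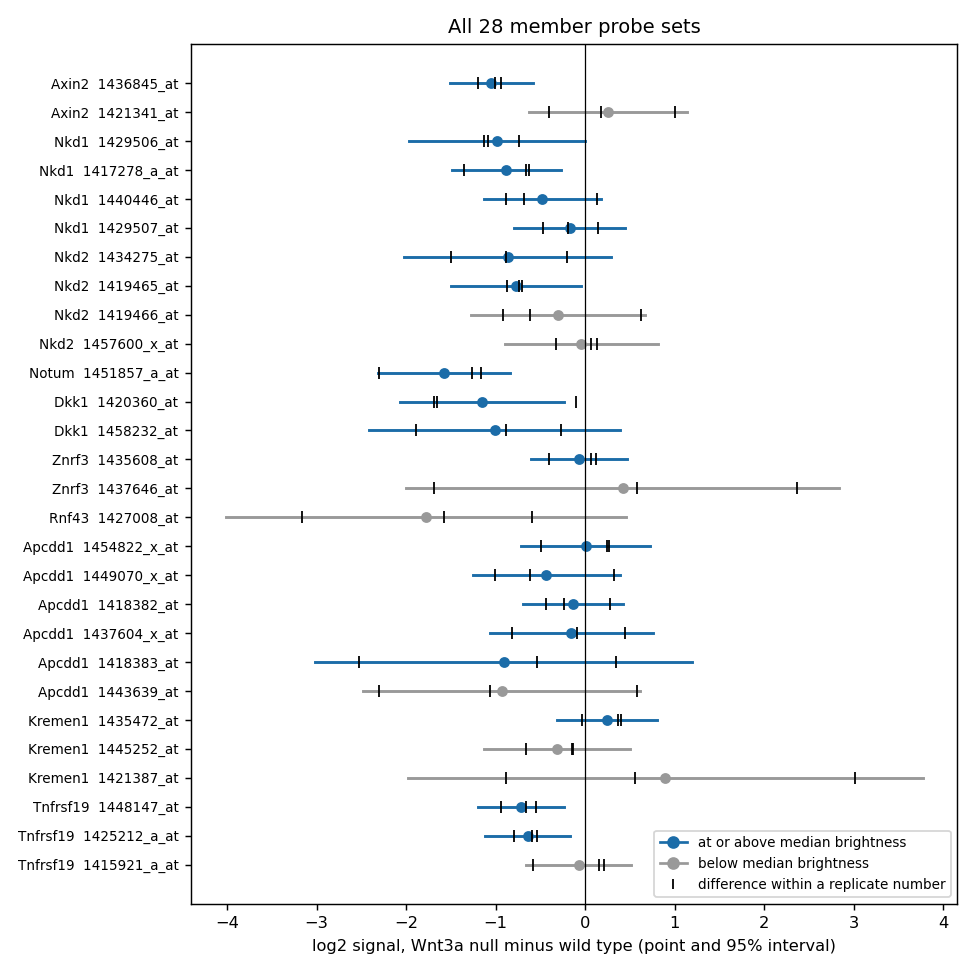
Log2 signal difference, Wnt3a null minus wild type, of all 28 member probe sets, with the 95% interval of the genotype-only limma fit. Blue probe sets lie at or above the median brightness of all probe sets and grey ones below it, and black ticks are the differences within replicate numbers 1 to 3. The intervals of Axin2 (-1.51 to -0.59) and Notum (-2.32 to -0.84) lie farthest from 0.

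Some features of the arrays and tissue bear on all members. Median signals ran from 73.7 to 86.4 per array. Wild-type pool 1 had a Y-linked Eif2s3y signal of 4.31, against 1053 to 1788 on the other 5 arrays. The X-linked Xist signal was 7440 in wild-type pool 1 and 5047 in null pool 1, against 1871 to 2707 on the remaining arrays. An effect of the sex of the pooled embryos on the members was not tested. The 3' to 5' signal ratio of Gapdh, a measure of RNA integrity, was 2.51 to 3.00 for wild type against 2.09 to 2.39 for null, while that of Actb overlapped, at 2.68 to 3.69 against 2.38 to 3.83. The presomitic mesoderm markers Tbx6, Msgn1, Dll1, Hes7 and Meox1 summed to 7011 to 8023 in wild type and 4649 to 5967 in null, with 4 of 5 markers lower in value. The 7 streak markers summed to 3233 to 5703 in wild type and 2247 to 2405 in null, with 4 of 7 lower in value, and of these markers Wnt3 (2.13 to 41.1) and Gsc (3.62 to 27.8) were dim on every array. The 7 neural plate markers summed to 3011 to 3560 in wild type and 4805 to 6746 in null, with 6 of 7 higher in value. The 6 measured node and notochord markers summed to 1103 to 2842 in wild type and 904 to 1780 in null, and sums overlapped as well for heart, blood, endothelium and visceral endoderm. No marker signal was at 0. The sums of streak, presomitic and neural markers separated by genotype. So did the brightest probe set of 6 of the 10 members, all lower in null. Over the brightest probe sets of all genes, 4.56% separated with null lower and 5.56% with null higher. The part of the marker differences in those of the members was not tested. In bulk tissue, fewer cells that express a gene and less RNA per cell cannot be told apart.

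Axin2, the cytoplasmic scaffold, was the 1 member called in the fit with block, trend and robust options on all 6 arrays. Its bright probe set 1436845_at gave 1291, 1224 and 1289 in null pools 1 to 3 and 2602, 2806 and 2472 in wild-type pools 1 to 3. The null signals lay close together, every wild-type signal was well above them, and the groups did not overlap. The log2 difference was -1.05 with a standard error of 0.19, which is 2.07-fold lower, and the differences within replicate numbers were -1.01, -1.20 and -0.94. The genotype-only fit gave an adjusted p of 0.425 (limma), and the fit with block, trend and robust options gave 0.00827 (limma). In that fit Axin2 was also called without replicate 1, 2 or 3, with adjusted p (limma) between 0.00309 and 0.0235. The other Axin2 probe set, 1421341_at, was dim, at percentile 44.6 of brightness over all probe sets. It gave 94.2, 53.6 and 40.5 in null and 47.0, 47.5 and 53.6 in wild-type pools, which overlapped.

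Nkd1, 1 of the pair of Dishevelled-binding inhibitors, had 4 probe sets, of which the 2 brightest separated the genotypes. Probe set 1429506_at gave 374, 619 and 363 in null and 623, 1353 and 771 in wild-type pools. The highest null signal and the lowest wild-type signal were almost equal, and pool 2 was the highest of its genotype in both groups. Within replicate numbers the log2 differences were -0.74, -1.13 and -1.09, and the overall difference was -0.98 with a 95% interval from -1.97 to -0.0031. Probe set 1417278_a_at gave 189, 217 and 145 in null and 291, 343 and 370 in wild-type pools, with a log2 difference of -0.88 (interval -1.49 to -0.27). Here every wild-type pool lay clear of every null pool. Adjusted p (limma, genotype only) was 0.987 and 0.830 for these 2 probe sets, and with block, trend and robust options 0.0658 and 0.299. The dimmer Nkd1 probe sets, 1440446_at and 1429507_at, had log2 differences of -0.48 and -0.17 with overlapping groups.

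Nkd2, the relative of Nkd1, was measured by 4 probe sets that all lay near the median brightness or below. Its brightest, 1434275_at, gave 96.4, 35.9 and 90.2 in null and 111, 101 and 167 in wild-type pools. The groups did not overlap, but null pool 1 and wild-type pool 2 were close. The log2 difference was -0.87, with an interval from -2.03 to 0.29, and -0.41 without null replicate 2. Probe set 1419465_at gave 61.6, 45.4 and 71.1 in null and 113, 75.8 and 115 in wild-type pools, again without overlap, with a log2 difference of -0.77 (interval -1.50 to -0.04). The remaining 1419466_at and 1457600_x_at overlapped, at -0.30 and -0.04, and the suffix x marks a probe set that can also bind similar sequences of other genes. On the same array, log2 Nkd1 minus log2 Nkd2 averaged 2.81 ± 0.82 for wild type and 2.69 ± 1.23 for null (SD, n = 3 each). The difference of -0.12 was far within that spread (exact permutation test, two-sided p = 0.80). Pool 2 had the highest value in both genotypes, at 4.11 in null and 3.74 in wild type, and the test did not use replicate number.

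Among the secreted inhibitors, Notum, a carboxylesterase that inactivates Wnt ligands, had the largest difference of all member probe sets above the median brightness. Its single probe set, 1451857_a_at, gave 186, 218 and 122 in null and 449, 486 and 605 in wild-type pools. The lowest wild-type signal exceeded the highest null signal by more than the range within either genotype. The log2 difference was -1.58 with a standard error of 0.30, or 2.98-fold lower. Differences within replicate numbers were -1.27, -1.16 and -2.31. The adjusted p was 0.451 (limma, genotype only) and 0.0639 with block, trend and robust options (limma), where leaving out replicate 1, 2 or 3 gave 0.0732, 0.00558 and 0.176 (limma).

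Dkk1, the secreted blocker of Lrp co-receptors, had 2 probe sets, both lower in value in null and both with wide spread. Probe set 1420360_at gave 313, 167 and 155 in null and 336, 539 and 490 in wild-type pools. Null pool 1 was almost as high as wild-type pool 1, while the other null pools stood far below their counterparts, so the log2 differences within replicate numbers were -0.10, -1.69 and -1.66. The overall log2 difference was -1.15 (interval -2.07 to -0.23), 2.22-fold lower, with an adjusted p of 0.924 (limma). With block, trend and robust options the adjusted p (limma) was 0.284, and 0.0382, 0.508 and 0.713 without replicate 1, 2 or 3. Probe set 1458232_at gave 254, 107 and 59.8 in null and 305, 198 and 221 in wild-type pools. Null pool 1 exceeded wild-type pools 2 and 3, so the groups overlapped, and the log2 difference was -1.01 (interval -2.41 to 0.39). It was -1.57 without null replicate 1 and -0.52 without null replicate 3.

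Kremen1, the membrane receptor that joins Dkk1 to Lrp co-receptors, went the other way in value. Its brightest probe set, 1435472_at, gave 152, 117 and 167 in null and 115, 120 and 129 in wild-type pools, with overlap. The log2 difference was 0.24 (interval -0.32 to 0.80). The other 2 Kremen1 probe sets lay below the median brightness, at -0.32 and 0.90, and the latter rested on 1 wild-type signal of 4.57. Log2 Dkk1 minus log2 Kremen1 on the same array was 1.04, 0.51 and -0.10 in null and 1.54, 2.16 and 1.92 in wild-type pools. All null values lay below all wild-type values, by -1.39 on average, at the smallest p that 3 against 3 allows (exact permutation test, two-sided p = 0.10, and 0.20 after Benjamini-Hochberg adjustment over the 4 ratios). The design could therefore not reach 0.05 for any ratio.

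The ubiquitin ligases were measured unevenly. The bright Znrf3 probe set 1435608_at gave 938, 784 and 819 in null and 860, 1034 and 784 in wild-type pools. The signals were interleaved, and the log2 difference was -0.07. Its 95% interval ran from -0.61 to 0.46. The interval of Axin2 (-1.51 to -0.59) overlapped it at the edge, and that of Notum (-2.32 to -0.84) did not. Whether Znrf3 differed from either gene was not tested. The second Znrf3 probe set, 1437646_at, lay at percentile 33.1 of brightness and ranged from 10.2 to 78.8 without order. Rnf43 had 1 probe set, 1427008_at, at percentile 20.5. It gave 19.9, 6.08 and 5.94 in null and 59.4, 9.19 and 53.2 in wild-type pools. These signals overlapped, the interval of the log2 difference ran from -4.01 to 0.46, and no level could be read from them. Log2 Znrf3 minus log2 Rnf43 differed by 1.71 between genotypes (exact permutation test, two-sided p = 0.20), which carries the spread of the dim Rnf43 signal.

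Apcdd1, the membrane glycoprotein, had 6 probe sets and no separation on any of them. The brightest, 1454822_x_at, gave 1553, 2168 and 1375 in null and 1292, 1830 and 1933 in wild-type pools. The genotypes covered nearly the same range, and the log2 difference was 0.01 (interval -0.71 to 0.72), with its sign changing between settings. Probe set 1418382_at, without the x suffix, gave 489, 354 and 376 in null and 403, 478 and 444 in wild-type pools, with a log2 difference of -0.13 (interval -0.69 to 0.43). On 5 of the 6 probe sets null pool 1 was above wild-type pool 1 in signal, as the differences within replicate number 1 ran from 0.27 to 0.44 there. The 4 others were at -0.43 (1449070_x_at), -0.15 (1437604_x_at), -0.91 (1418383_at) and -0.93 (1443639_at), and all 4 intervals spanned 0.

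Tnfrsf19, the receptor gene, differed to a similar degree on its 2 brighter probe sets. Probe set 1448147_at, at percentile 92.3 of brightness, gave 1937, 1765 and 1665 in null and 2842, 2798 and 3187 in wild-type pools. The gap between the genotypes was larger than the range within either. The log2 difference was -0.72 with a standard error of 0.19, or 1.64-fold lower. Probe set 1425212_a_at gave 251, 275 and 257 in null and 435, 414 and 372 in wild-type pools, again far apart, with a log2 difference of -0.64 (standard error 0.19), or 1.56-fold lower. Adjusted p (limma, genotype only) was 0.798 and 0.874, and with block, trend and robust options 0.0671 and 0.393 (limma). The third probe set, 1415921_a_at, was dim at 50.6 to 75.7 and overlapped, with a log2 difference of -0.07.

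How bright a probe set was bore on how well it could be read. The median standard deviation between replicates of 1 genotype was 1.31 on the log2 scale in the dimmest of 4 equal groups of probe sets, then 0.84, 0.36 and 0.21 in the brighter ones. Of the 28 member probe sets 19 lay at or above the median brightness, a signal of 71.5. In null pools 17 of these were lower in value, against 48.1% of all probe sets in that brightness range. All 9 non-overlapping member probe sets were among those 19 (47.4%, against 4.04% of all probe sets in that brightness range). The 9 dimmer member probe sets held 0 non-overlapping ones. Of probe sets of any brightness 4.41% separated with null lower and 5.57% with null higher, so 0 of 9 says little. Of these 9, 6 were lower in value, against 48.3% of probe sets of any brightness. By replicate number, 12 of 28 member probe sets were lower in null in all 3 comparisons, against 13.7% of all probe sets, and 0 were higher in all 3, against 15.0%.

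**Figure D3:**
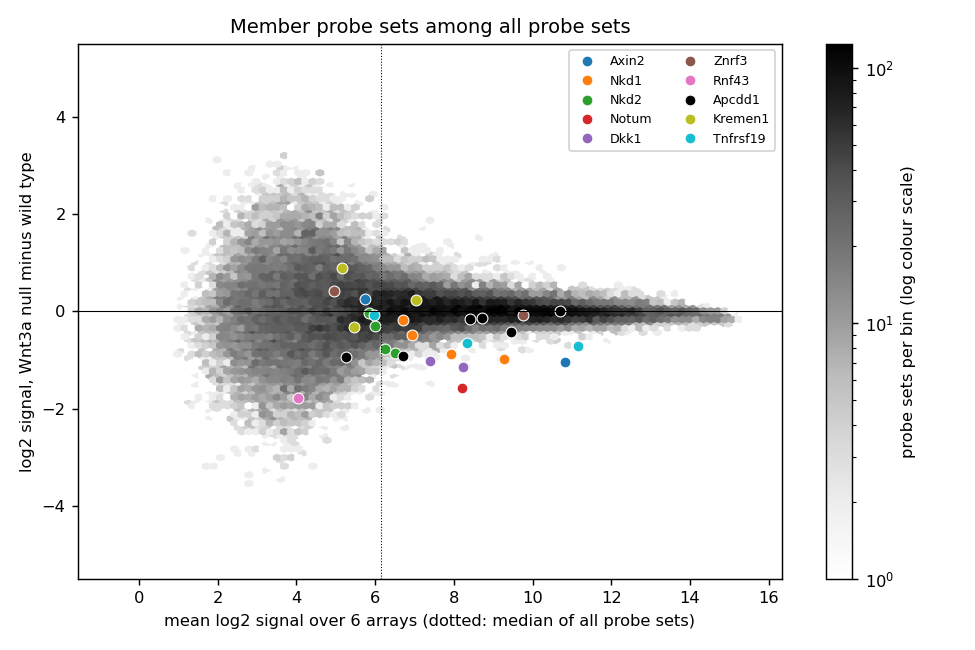
Log2 signal difference, Wnt3a null minus wild type, against the mean log2 signal over the 6 arrays. Grey hexagons count all 45037 probe sets on a log colour scale, coloured points are the 28 member probe sets, and the dotted line is the median brightness (6.16). The brightest probe sets of Axin2, Nkd1, Nkd2, Notum, Dkk1 and Tnfrsf19 lie between -1.58 and -0.72. Those of Znrf3, Apcdd1 and Kremen1 lie between -0.07 and 0.24. Other probe sets above the median brightness depart from this, as Nkd1 1429507_at (-0.17) and Apcdd1 1418383_at (-0.91) do. Some genes outside the group are as low, such as Nodal (-1.10) and Wfikkn1 (-1.23).

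Promoter sequence was set beside these differences for Axin2, Nkd1, Nkd2, Dkk1, Tnfrsf19 and Rnf43. No member with readable but overlapping signals was among them, so the windows cannot compare members with and without a difference. RefSeq promoter windows (GRCm38.p6) ran from 250 bases before to 50 after a transcript start, written along the gene's strand. Notum, Znrf3 and Kremen1 had no window, and that of Apcdd1 was left out. For the other 6 of the 10 members, matched by symbol, there were 8 windows. Each was searched on both strands for the Tcf/Lef motif CTTTG followed by AA, AT, TA or TT. Of the 8 windows 2 held a match, against 16.9% of all 32851 windows. Dkk1 held 2 matches, as 1.94% of windows held 2 or more, and 1 of the 2 Tnfrsf19 windows held 1. The windows of Axin2, Nkd1, Nkd2 and Rnf43 held 0, which says only that these letters are not there. Shown here are both windows with a match and that of Axin2, the member with the call described above; capitals mark the matches.
Dkk1, chr19:30549447-30549746, minus strand: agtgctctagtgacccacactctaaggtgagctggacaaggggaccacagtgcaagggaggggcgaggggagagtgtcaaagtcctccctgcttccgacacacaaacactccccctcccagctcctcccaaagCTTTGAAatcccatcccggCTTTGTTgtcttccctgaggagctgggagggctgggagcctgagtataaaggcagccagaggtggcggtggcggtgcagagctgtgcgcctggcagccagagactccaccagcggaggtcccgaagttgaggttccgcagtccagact
Tnfrsf19, chr14:61037938-61038237, minus strand: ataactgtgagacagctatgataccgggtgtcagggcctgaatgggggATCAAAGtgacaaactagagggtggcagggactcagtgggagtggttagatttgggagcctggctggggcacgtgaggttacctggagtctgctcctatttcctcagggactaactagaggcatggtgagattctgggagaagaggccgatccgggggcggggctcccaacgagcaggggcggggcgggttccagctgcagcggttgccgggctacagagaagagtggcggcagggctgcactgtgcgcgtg
Axin2, chr11:108920099-108920398, plus strand: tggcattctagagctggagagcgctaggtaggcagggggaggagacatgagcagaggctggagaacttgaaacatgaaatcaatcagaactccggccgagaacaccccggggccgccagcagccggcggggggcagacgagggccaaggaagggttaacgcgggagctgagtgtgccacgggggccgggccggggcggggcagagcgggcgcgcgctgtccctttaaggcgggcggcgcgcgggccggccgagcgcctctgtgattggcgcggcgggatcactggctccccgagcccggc
In Dkk1 both matches lay on the gene's own strand, with first bases at -117 and -98 relative to the start. In Tnfrsf19 the match CTTTGAT lay on the opposite strand, and its first written base was at -202. A match is a description of the letters and shows no binding.

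By the RefSeq table of assembly GRCm38.p6, 5 of the 10 genes lie on chromosome 11, as Wnt3a does, against 8.00% of 18033 measured genes. They are Axin2, Notum, Rnf43, Znrf3 and Kremen1, and Znrf3 and Kremen1 are direct neighbours among measured genes, with 0 between them. On this chromosome Axin2 and Notum had the differences above, Znrf3 and Kremen1 did not, and Rnf43 was too dim to read. Of the measured genes, 336 lie between Wnt3a and Znrf3, 337 between Wnt3a and Kremen1, and 461 between Wnt3a and Rnf43. Between Wnt3a and Axin2 lie 838, and between Wnt3a and Notum 1021. A link of position with the differences was not tested.

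Other genes of the pathway, from a fixed list of 85 symbols of which 82 were found in the annotation, went both ways. The symbols Kremen2, Sfrp3 and Tcf7 were not found. Wnt3a itself gave 961, 761 and 1009 in null and 864, 1058 and 996 in wild-type pools, which overlapped. With the altered stretch of Wnt3a not stated, its probe set does not check the genotype labels. In the genotype-only fit 0 of 82 passed the adjusted test, and the median log2 difference was -0.03. At an unadjusted p under 0.05, 5 were lower and 5 higher. Over the brightest probe sets of all 18193 genes, 346 were lower (1.90%) and 466 higher. Signals did not overlap for 10 of the 82 that were lower in null and 10 that were higher. This was 12.2% each way, against 4.56% and 5.56% of all genes. The 6 with the smallest p were Sfrp5, Dvl3, Dkk4, Fzd8, Wnt5b and Sfrp1. Sfrp5 and Sfrp1, secreted Wnt-binding inhibitors, were higher in value in null. Sfrp5 gave 252, 217 and 278 there against 118, 78.3 and 73.1 for wild type, and Sfrp1 had a log2 difference of 0.85. The Frizzled receptor Fzd8 was higher in value (log2 difference 2.13), and the ligand Wnt5b lower (-0.83). Dkk4, a relative of Dkk1, gave 50.4, 28.9 and 34.5 in null and 105, 75.4 and 84.6 in wild-type pools, without overlap, at percentile 45.6 of brightness. Dvl3, a Dishevelled gene, was dim, at 3.61 to 16.6 on all arrays. By role, the median log2 difference was -0.10 for 13 genes of ligands and their secretion, 0.03 for 16 receptors, 0.14 for 7 R-spondins and Lgr receptors, -0.10 for 14 other extracellular inhibitors, -0.04 for 20 cytoplasmic components and -0.01 for 12 nuclear components.

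**Figure D4:**
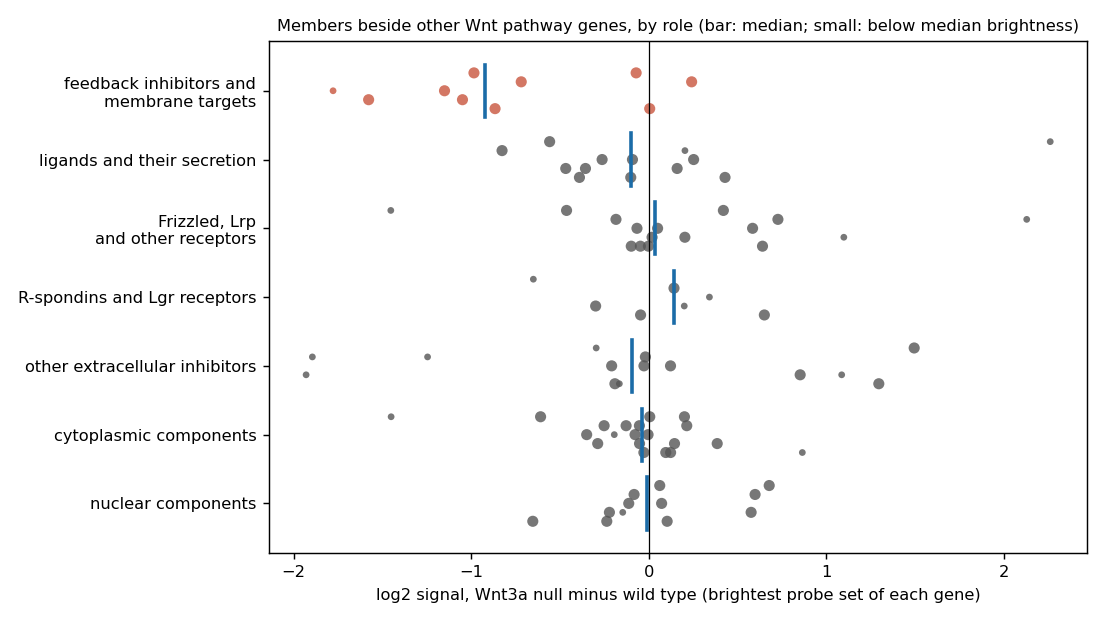
Log2 signal difference, Wnt3a null minus wild type, of the brightest probe set of each gene: the 10 members (orange) and 82 other Wnt pathway genes (grey) by role. Blue bars are medians, and small points lie below the median brightness; the members' median is -0.92 and the other roles' medians lie between -0.10 and 0.14.

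The relatives of the members that are not in the group were looked at by the same measure. Axin1, the relative of Axin2, gave 1423, 831 and 838 in null and 1572, 1053 and 1008 in wild-type pools. Its groups overlapped, with a log2 difference of -0.25. Log2 Axin2 minus log2 Axin1 on the same array was -0.14, 0.56 and 0.62 in null and 0.73, 1.41 and 1.29 in wild-type pools. The values did not overlap and differed by -0.80 on average (exact permutation test, two-sided p = 0.10, the smallest possible, and 0.20 after adjustment over the 4 ratios). Dkk2, Dkk3 and Dkkl1 overlapped between genotypes, with log2 differences of 1.09, -0.21 and -0.30, and the first rested on a null signal of 420 beside 27.1 and 2.75.

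Among 19322 probe sets of other genes at or above the median brightness, profiles most like those of the members were found by the root mean square difference over the 6 arrays, after each log2 profile had been centred on its own mean. Nearest to Axin2 were a Shmt1 probe set (0.11), Cdx1 (0.14), Tbx6 (0.17), Myl2 (0.18) and a Smc6 probe set (0.20). Cdx1, a caudal homeobox gene, gave 988, 1066 and 1009 in null and 2377, 2469 and 2505 in wild-type pools. Nearest to Notum were Cdx1 (0.30), Wfikkn1 (0.30) and the same Shmt1 probe set (0.33), and nearest to Tnfrsf19 were Tbx6 (0.08), a Birc6 probe set (0.09) and a Zfp24 probe set (0.10). Tbx6, a T-box gene of presomitic mesoderm, gave 704, 652 and 612 in null and 1107, 1120 and 1069 in wild-type pools. For Shmt1, Birc6 and Zfp24 other probe sets of the gene did not share the profile: 2 of 4 Shmt1 probe sets were at 0.25 and -0.07, and the brightest of Birc6 and Zfp24 were at 0.27 and 0.20. These likenesses rest on 6 arrays in 2 genotypes and say nothing of shared control.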

How the data were processed

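RNA of the dissected node with primitive streak was measured on 6 Affymetrix Mouse Genome 430 2.0 arrays. Per the labels' protocols, 30 to 50 ng of RNA of each embryo was amplified, and 600 ng of amplified RNA from 3 embryos was pooled for each array. The deposited values are 1 linear intensity per probe set and array. The submitters' processing notes name RMA, but all 6 arrays share 1 mean (500, with 2% trimmed at each end) on a linear scale, so how the values were made is unknown here. The number of arrays limits the precision. The labels call the arrays biological replicates.

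The 64 control probe sets were left out, and the annotation gave 34945 probe sets 1 gene symbol, 932 several and 9160 none. Signals were turned to log2 with no floor or filter and compared with limma 3.58.1 under R 4.3.3 (functions lmFit and eBayes, two-sided, Benjamini-Hochberg over all 45037 probe sets, threshold 0.05). Ratios of related genes were tested with exact permutation tests. Tests were planned for log2 RMA values or linear values turned to log2. Named genes were the members, up to 6 genes of the pathway list by smallest p, relatives of members, and the 5, 3 and 3 most similar profiles. Members, lists and the fit with block, trend and robust options were chosen with earlier results of these data known.

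Deviations from genotype means correlated between arrays of 1 replicate number at 0.331, 0.343 and 0.210 over the 22519 probe sets at or above the median brightness, and at 0.0537, 0.0524 and 0.0338 over all. The former passed the bound of 0.1, and replicate number served as a block in alternative fits and for differences within replicate numbers. The main fit, its standard errors and intervals, and the ratio tests given above did not use it. No label says what arrays of 1 number have in common. Simulated data held 45037 probe sets in 5 draws, with 200 changed, all at or above the median brightness. On them the genotype-only fit recovered 0% of log2 changes of 1 and 68.0% of those of 3, with 7.36% of calls false. Changes in dimmer probe sets were not simulated. Alternatives were the block, trend and robust options, a filter at the median brightness, median centring, cyclic loess, log2(signal + 50), 1 probe set per gene, array weights, and leaving out arrays or pairs.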

Additional observations from a re-analysis of the deposited data

How the results depend on the processing

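The genotype-only fit called 0 probe sets and 0 members, also with the block alone, the brightness filter, median centring, cyclic loess, log2(signal + 50), 1 probe set per gene, array weights and each array left out. Trend and robust options called 1 probe set without and 22 with the replicate block (1 member, Axin2), or 16 (1 member) with log2(signal + 50), chosen after seeing the data as were the settings of the counts below. With 1 replicate number left out, that fit called 21 to 138 probe sets and 1 to 3 members; without replicate 2 it called 138. The block alone changed no member's call. Besides Axin2, members were called only with the block, trend and robust options and a pair left out: Dkk1 without replicate 1, and Notum and Tnfrsf19 without replicate 2. The cause was not tested.

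The 8 member probe sets lower at an unadjusted p under 0.05 (2.20% of all) became 5 with 1 probe set per gene, where 10 are tested (2.14% of all), and 5 to 11 with arrays or pairs left out (2.00% to 3.21% of all), lowest without null replicate 3. Of the 28 member probe sets 17 kept their direction in every setting run for them, among them all those of Nkd1, Notum, Dkk1 and Rnf43, Axin2 1436845_at and the 2 brighter ones of Tnfrsf19. Signs turned elsewhere: Apcdd1 1454822_x_at was at -0.046 with median centring, -0.063 with array weights and -0.18 to 0.25 with arrays or pairs left out. With arrays or pairs left out the log2 difference also turned for Axin2 1421341_at (-0.11 to 0.59), Nkd2 1419466_at (-0.77 to 0.0046) and 1457600_x_at (-0.31 to 0.21), Znrf3 1435608_at (-0.17 to 0.094) and 1437646_at (-0.55 to 1.47), Apcdd1 1418382_at (-0.34 to 0.020), 1437604_x_at (-0.45 to 0.18) and 1418383_at (-1.53 to 0.045), Kremen1 1421387_at (-0.36 to 1.92) and Tnfrsf19 1415921_a_at (-0.21 to 0.18). The ratio of Nkd1 to Nkd2 also turned, from -0.83 to 0.35 with arrays left out; the other ratios kept their direction. Probe sets below the median brightness vary most between replicates.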
